A study of Macrobrachium rosenbergii with 20 samples.

Results

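The transcripts of the testis were compared with those of the hepatopancreas in adult male giant freshwater prawns (Macrobrachium rosenbergii, strain CMr1). The comparison took every library labelled testis and every library labelled male hepatopancreas, 5 of each, which made 10 of the 20 libraries of the series. The other 10 libraries, 5 from ovary and 5 from female hepatopancreas of adult females of the same strain, served only to describe the same transcripts in samples that the male comparison did not use. The study set gut microbiomes beside the transcriptomes of both organs, and no treatment, mutant or transgene separated the groups. Organs were dissected, washed and frozen, and total RNA went into libraries made with a directional kit. The labels also give each sample a weight gain, with no unit, from 1.48 to 2.83 in testis and from 1.61 to 3.69 in male hepatopancreas samples. They do not say whether samples of 1 group came from separate animals, so the p-values measure only the spread between these samples, which may be partly technical.

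The hepatopancreas is the digestive gland of crustaceans. It makes and secretes digestive enzymes, takes up nutrients, and stores lipid and glycogen. The testis is where germ cells divide, pass through meiosis and become sperm, which in decapods have no flagellum. In a bulk library of either organ, fewer cells of a type and less RNA per cell cannot be told apart.

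The table used here gives an estimated count for each of 30260 transcripts, which are known only by an ID and a length. No ID is paired with a gene name, so the organs could not be checked by the levels of known marker genes, and no pathway or gene family is described. In their place, sets of transcripts defined on the female libraries alone are used further on as a check of tissue identity. Library totals ran from 13910322 to 18355650 counts in male hepatopancreas and from 12822717 to 17102848 in testis. Of the transcripts, 20207 (66.78%) had no count in any male library. Another 2959 had counts but missed the filter of 10 counts in at least 5 of the 10 libraries, and 7094 were tested. The tested transcripts held 99.59% ± 0.157 of the counts in hepatopancreas and 90.33% ± 1.11 in testis (SD, n = 5).

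Testis 5 stood apart from the other testes, and male hepatopancreas 5 stood apart by less. Correlations of log2 CPM (counts scaled by library size) across transcripts ran from 0.86 to 0.93 among testes 1 to 4 and from 0.67 to 0.79 between testis 5 and the others. Among hepatopancreas libraries they ran from 0.86 to 0.93, with number 5 at 0.86 to 0.89. Between testis and hepatopancreas libraries they ran from 0.088 to 0.23. The main counts are given below also without these libraries.

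The 4 transcripts named here are those with the widest gap between the lowest library of the higher organ and the highest library of the other, 2 for each organ. Transcript transcript_HQ_Female_transcript21720/f3p0/681, a short transcript of 681 bases, was the most abundant transcript in every testis library. Its level in testes 1 to 5 was 119000, 66340, 70060, 73980 and 29500 CPM after scaling by trimmed mean of M-values (TMM), which allows for the few transcripts that take much of a library. In male hepatopancreas 1 to 5 it was 0.0821, 0.958, 0, 0 and 0.197 CPM, from 14 counts in all. The groups did not overlap, and testis 5 was the lowest of the testes. The means were 71780 ± 31840 CPM in testis and 0.247 ± 0.405 CPM in hepatopancreas (SD, n = 5 each). The ratio of the summed counts of each group over its summed scaled library sizes, which differs from the ratio of the means, was 265400 (95% Poisson interval 158200 to 485500, counting error only). The log2 change (testis minus hepatopancreas) was 18.12 ± 2.15 (SE), with an edgeR adjusted p of 8.3e-05. Male hepatopancreas 2 held 10 of the 14 hepatopancreas counts, and without it the log2 change was 19.55 (edgeR adjusted p 0.000169). Of all counts in testes 1 to 5, this transcript took 9.8%, 7.16%, 10%, 11.7% and 6.01%, and of the counts per base of length 13.5%, 10.8%, 14.2%, 16.8% and 11.4%.

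The other testis transcript, transcript_HQ_Female_transcript11511/f7p0/1333, had no count in any male hepatopancreas library. It stood at 7710, 10710, 3880, 3298 and 3009 CPM in testes 1 to 5, a mean of 5721 ± 3371 CPM (SD, n = 5). Testes 1 and 2 were the highest, and testis 5 lay close to testes 3 and 4. Set against 3 counts over the hepatopancreas group, it was at least 99200-fold higher in testis, and its edgeR adjusted p was 6.16e-05. Not all values of these testis transcripts were whole numbers, so the authors' counting shared some of their reads with other IDs, and the level of each ID is uncertain to that extent.

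In the opposite direction, transcript_HQ_Female_transcript1564/f8p0/2607 had no count in any testis library. Its levels in male hepatopancreas 1 to 5 were 737.5, 2491, 966.3, 1532 and 821.3 CPM, a mean of 1310 ± 729.4 CPM (SD, n = 5). It was at least 43600-fold higher there than the 3 counts set for the testis group, with an edgeR adjusted p of 2.83e-05. All 5 hepatopancreas libraries held it within a range that is small beside this difference. Transcript transcript_HQ_Female_transcript3457/f2p0/2132 reached 2337, 6094, 3273, 3129 and 2705 CPM in male hepatopancreas 1 to 5. In testes 1 to 5 it stood at 0.987, 0.181, 0, 0 and 0 CPM, from 15 counts in all. Its mean was 3508 ± 1492 CPM in hepatopancreas and 0.234 ± 0.429 CPM in testis (SD, n = 5 each). The ratio of summed counts over scaled library sizes was 23820 (95% Poisson interval 14440 to 42550). Its log2 change was -13.98 ± 1.88 (SE), with an edgeR adjusted p of 0.000184. Testis 1 held 12 of the 15 testis counts, and without it the log2 change was -16.42 (edgeR adjusted p 4.23e-05). The values of both hepatopancreas transcripts were whole in all male libraries.

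In the female libraries, scaled in a separate fit, the pair from testis was nearly missing and the pair from hepatopancreas was present. The transcript of 681 bases had 1.63 and 7.05 CPM in ovaries 1 and 3, 0.114 CPM in female hepatopancreas 4 and no count in the other 7 female libraries. Transcript transcript_HQ_Female_transcript11511/f7p0/1333 had 6.61, 0.0608, 0.737, 0 and 0.324 CPM in ovaries 1 to 5 and no count in female hepatopancreas. Both were thus far below every testis library in every ovary library. Transcript transcript_HQ_Female_transcript1564/f8p0/2607 held 777.9 to 2082 CPM in female hepatopancreas, with counts in ovary 5 alone of the ovaries (0.27 CPM). Transcript transcript_HQ_Female_transcript3457/f2p0/2132 held 3783 to 11370 CPM in female hepatopancreas and 0.176 to 3.40 CPM in ovary. These ranges overlap the male hepatopancreas values, and the tests of whether the tissue difference differed between the sexes gave edgeR adjusted p of 0.0771 and 0.507.

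**Figure D1:**
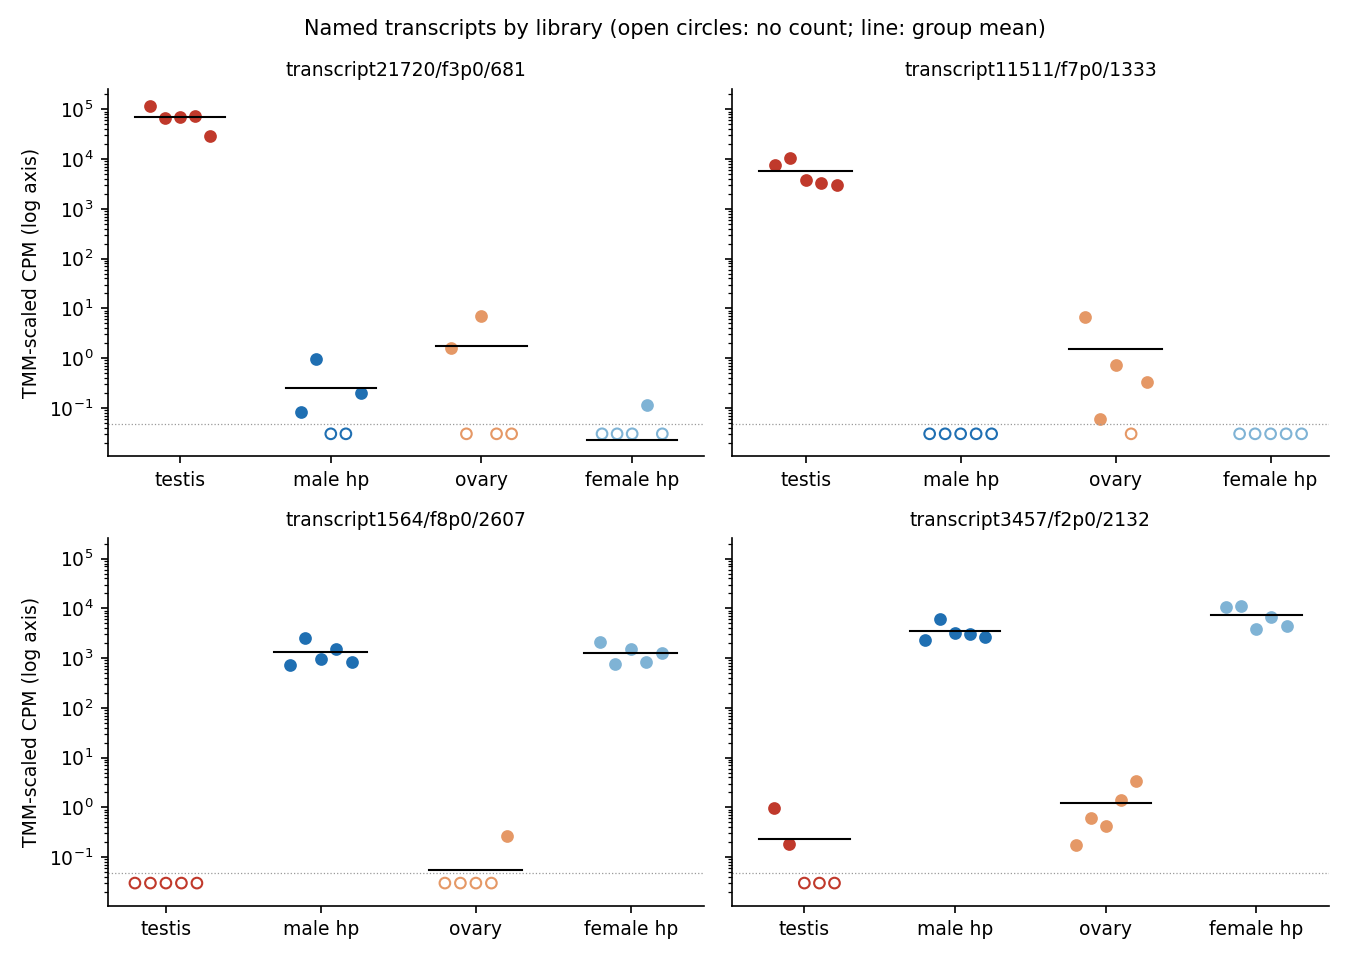
TMM-scaled CPM (log axis) of the 4 named transcripts in each library, with male and female libraries scaled in separate fits; filled points are libraries with counts, open circles below the dotted line are libraries with no count, and lines are group means. The testis transcripts of the upper panels lie between 3009 and 119000 CPM in testis and at most at 7.05 CPM elsewhere, and the transcripts of the lower panels are high in the hepatopancreas of both sexes.

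Across the transcripts that passed the filter, the organs differed in both directions. Of the 966 called differences of at least 32-fold, 721 were toward hepatopancreas. A transcript was called at an edgeR adjusted p (Benjamini-Hochberg) under 0.05. By that rule 3411 of 7094 were called (48.1%), 1782 higher in testis (25.1%) and 1629 higher in hepatopancreas (23%). The number at an unadjusted p under 0.05 was 3895. Of the calls, 52.2% were thus toward testis. With library totals alone in place of TMM, 4257 were called and 74.4% of them were toward testis, and the median log2 change of all tested transcripts was 1.1 in place of 0.21, a shift of 0.89. The balance of directions therefore rests on the scaling, while the changes named above are far larger than this shift.

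The sizes of change are given for each direction. Among transcripts higher in testis, the median log2 change was 1.99 (quartiles 1.26 and 3.52), and 231 differed by less than 2-fold, 665 by 2-fold to 4-fold, 641 by 4-fold to 32-fold and 245 by 32-fold or more. Among those higher in hepatopancreas, the median size was 3.87 (quartiles 1.65 and 9.44), and the corresponding numbers were 160, 357, 391 and 721. Among the tested transcripts, testis thus had more small and middle-sized changes, and hepatopancreas more of the largest. The filter bears on this balance, as it kept out 137 transcripts with 10 or more counts in testes 1 to 4 only. With a filter of 4 libraries, 1158 called changes in place of 966 were at least 32-fold. EdgeR then called 1967 higher in testis and 1674 higher in hepatopancreas. The 1158 were not split by direction. The fitted change of a transcript with no count in an organ depends on the prior count of the fit and is no bound.

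**Figure D2:**
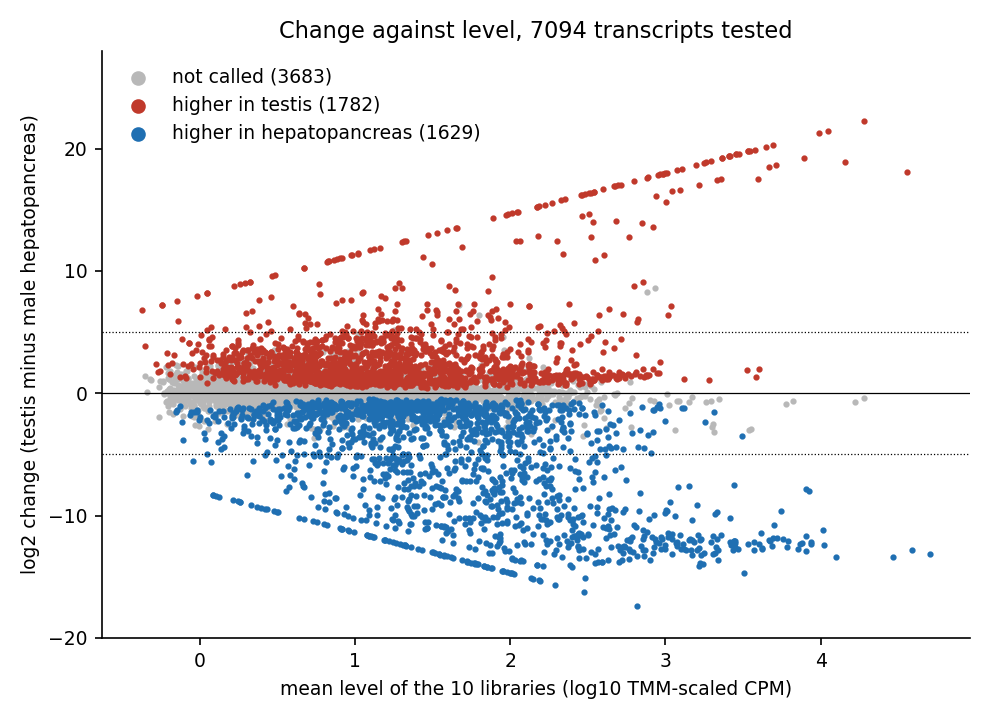
Log2 change (testis minus male hepatopancreas) of each tested transcript against its mean level over the 10 libraries (log10 of TMM-scaled CPM); red points were called higher in testis (1782), blue points higher in hepatopancreas (1629) and grey points were not called (3683), and dotted lines mark 32-fold. The oblique upper and lower edges are transcripts with no count in an organ, and the blue points spread below the lower dotted line at all levels.

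The levels of the libraries themselves show how firmly the organs were separated. For 2554 of the 7094 transcripts (36%) the testis and hepatopancreas libraries did not overlap, with all testes higher for 1124 and all hepatopancreas libraries higher for 1430. Of the transcripts called higher in hepatopancreas, 1398 (85.82%) did not overlap. Of those called higher in testis, 1094 (61.39%) did not. Among transcripts that were not called, 62 did not overlap. The 2554 became 3078 without testis 5, 2864 without male hepatopancreas 5 and 3407 without both, with fewer libraries to overlap.

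A group of 187 called transcripts had counts in all 5 libraries of an organ and none in the other organ. Of these, 95 were testis transcripts, with a median level of 333 CPM in testis and 57 of them over 100 CPM. The other 92 were hepatopancreas transcripts, with a median of 42.5 CPM and 30 over 100 CPM. Their levels ran up to 38090 CPM in testis and up to 1310 CPM in hepatopancreas. Against 3 counts over the empty group, the median lower bound of the difference was 5835-fold for the testis transcripts and 1514-fold for the hepatopancreas ones. In the female libraries the 2 groups behaved differently. None of the 92 hepatopancreas transcripts lacked counts in female hepatopancreas, while 36 of the 95 testis transcripts had no count in ovary and 33 had none in any female library. This count depends on the filter, and with no filter it was 501 in place of 187. It was 213 without testis 5 and male hepatopancreas 5, and 249 without testis 1.

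The called transcripts took most of the counts of their own organ, which follows in part from the way they were chosen and is given as a description. The 245 transcripts that were at least 32-fold higher in testis held 65.71%, 53.39%, 49.5%, 45.94% and 29.82% of the counts of testes 1 to 5. They held 0.0144% to 0.0306% of male hepatopancreas libraries. Testis 1 was the highest and testis 5 the lowest. The 721 transcripts at least 32-fold higher in hepatopancreas held 79.38%, 80.45%, 74.88%, 68.92% and 67.11% of the counts of male hepatopancreas 1 to 5 and 0.102% to 0.140% of testis libraries. All transcripts called higher in testis together held 67.5% ± 8.75 of testis counts and 3.40% ± 0.92 of hepatopancreas counts (SD, n = 5). Those called higher in hepatopancreas held 82.2% ± 5.31 of hepatopancreas counts and 3.50% ± 0.80 of testis counts.

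**Figure D3:**
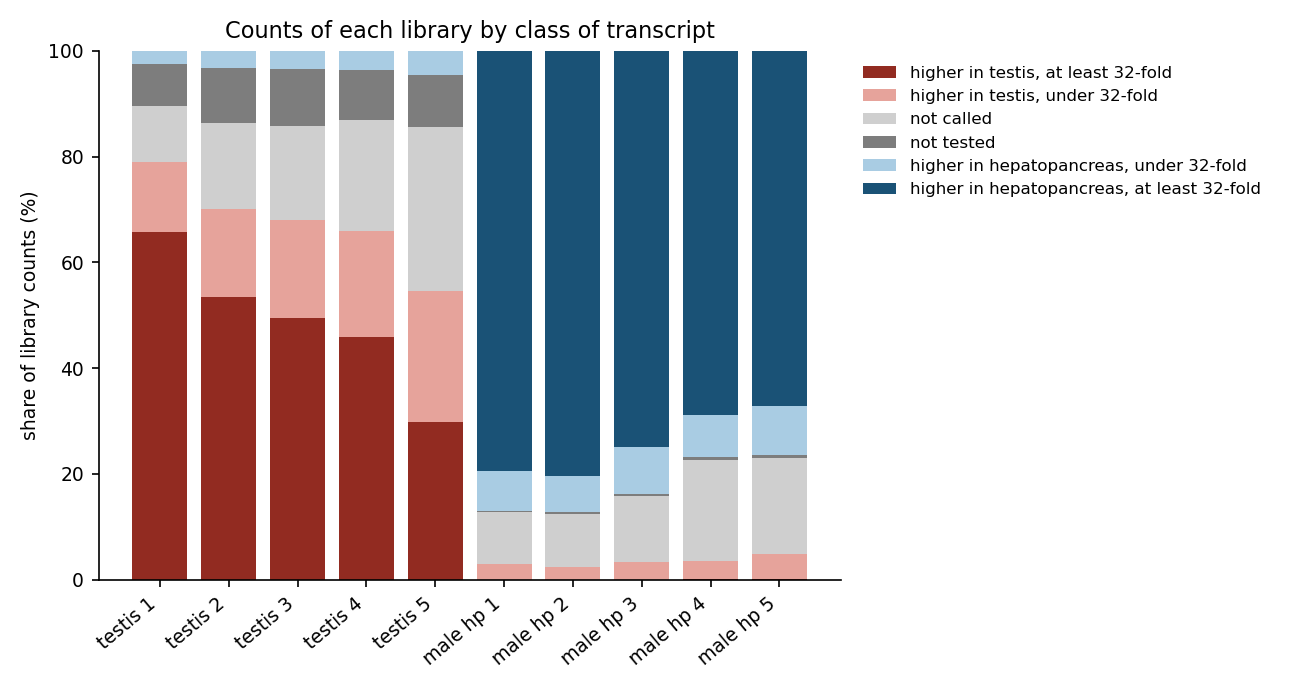
Share of the counts of each library (bars, in percent, adding to 100) held by transcripts of each class of the comparison; red classes were called higher in testis, blue classes higher in hepatopancreas, and dark grey marks transcripts that did not pass the filter. The darkest red class takes between 29.82% (testis 5) and 65.71% (testis 1) of testis counts, and the darkest blue class lies between 67.11% and 80.45% in the hepatopancreas libraries.

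The most abundant transcripts were few in both organs. Of the counts of a library, 50% lay on 17, 29, 30, 37 and 48 transcripts in testes 1 to 5 and on 33, 18, 33, 37 and 47 in male hepatopancreas 1 to 5. The lists of the 100 most abundant transcripts shared 18 transcripts over all 5 testes and 44 over all 5 hepatopancreas libraries. Over libraries 1 to 4 alone, the testes shared 64 and the hepatopancreas libraries 66. Of the 18 testis transcripts, 13 were called higher in testis and none higher in hepatopancreas, and of the 44 hepatopancreas transcripts 40 were called higher there. Both lists were chosen by levels in libraries that enter the calls, so these directions follow in part from the choice. Among the most abundant 1419 of the tested transcripts, 28.82% were called higher in testis and 47.57% higher in hepatopancreas. Only 4 transcripts were among the 100 most abundant of all 10 libraries.

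Abundant transcripts were called at a higher share than scarce ones, and mostly toward hepatopancreas. When the tested transcripts were ranked by mean CPM over the 10 libraries and cut into 5 equal parts, 28.33% were called in the lowest part, then 34.04%, 46.9%, 54.76% and 76.39% in the highest. The share called higher in hepatopancreas went from 9.02% to 47.57%. The share called higher in testis went from 19.31% to 28.82%. In the lowest part, under 3.46 CPM, calls were thus more often toward testis, and in the highest part, over 57.1 CPM, more often toward hepatopancreas.

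Transcripts of all lengths were called in both directions. Median lengths were 1689 bases for transcripts called higher in testis, 1658 for those higher in hepatopancreas and 1627 for all tested. Among the 546 transcripts of 3000 bases or more, 24 were at least 32-fold higher in testis and 24 in hepatopancreas. Among the 1152 under 1000 bases the numbers were 65 and 133. The transcripts with no count in the other organ were shorter, at medians of 1370 bases (testis) and 1221 bases (hepatopancreas).

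The IDs carry a word for quality, a word for sex and a number after the letter f, whose meaning is not given in the sources used here. Of 139 tested transcripts with the word Male in the ID, 46 (33.09%) were called higher in testis and 29 (20.86%) higher in hepatopancreas, against 25.1% and 23% of all tested. Of 82 with the class LQ, 22 (26.83%) were higher in testis and 33 (40.24%) in hepatopancreas. The 1381 transcripts with a number of 10 or more after f were called at 28.6% and 24.98%, close to all tested. The LQ share toward hepatopancreas lies above that of all tested but rests on few transcripts.

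Library-wide measures gave no difference past the threshold after adjustment over the 6 tested, by two-sided exact permutation tests whose smallest possible p for 5 against 5 is 0.00794. Testis libraries held 6639 ± 425 transcripts at 1 CPM or more and hepatopancreas libraries 6041 ± 172 (SD, n = 5 each; exact p = 0.0317, adjusted 0.0794), with the testis higher in 5 of 5 same-numbered pairs. The mean length of transcript behind a count was 1454 ± 197 bases in testis and 1859 ± 124 in hepatopancreas (exact p = 0.0238, adjusted 0.0794), lower in testis in 4 of 5 pairs. It was 1298, 1457, 1358 and 1368 bases in testes 1 to 4 and 1791 in testis 5, which alone lay within the range of the hepatopancreas libraries (1742 to 2054). The effective number of transcripts was the exponential of the Shannon entropy of the shares of counts per base of length. It was 183.9 ± 86.9 in testis and 282.9 ± 44.4 in hepatopancreas (exact p = 0.0397, adjusted 0.0794), lower in testis in 5 of 5 pairs. On counts in place of counts per length the direction turned, with 32.2 more transcripts in testis (exact p = 0.659). Without testis 5, the adjusted exact p of the mean length and of the effective number per length was 0.0318, with differences of -489 bases and -135 transcripts (testis minus hepatopancreas). The share of counts on LQ IDs was 13.45% ± 6.22 in testis and 8.73% ± 0.98 in hepatopancreas (exact p = 0.111, adjusted 0.167), and without testis 5 its adjusted exact p was also 0.0318. Each of these values without testis 5 comes from an unadjusted exact p of 0.0159, the smallest possible for 4 against 5. Shares in the 10 most abundant transcripts (32.8% ± 5.58 and 29.7% ± 7.50) and on IDs with the word Male (5.87% ± 2.84 and 6.26% ± 1.40) gave adjusted exact p of 0.562 and 0.786.

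The fitted spread between replicates was wider in testis than in hepatopancreas. The biological coefficient of variation fitted by edgeR was 0.75 in testis and 0.561 in male hepatopancreas. It was 0.61 without testis 5 and 0.501 without male hepatopancreas 5. For the 245 transcripts at least 32-fold higher in testis, the median coefficient of variation over the testes was 74.8%, and 52.3% without testis 5. For the 721 hepatopancreas transcripts of that size it was 50.3%, and 38.3% without male hepatopancreas 5.

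Testis 5 held the lowest level of the testes for 151 of those 245 transcripts (61.63%). Testes 1 to 4 held the lowest level for 16, 28, 23 and 27. Testis 5 was more than 8-fold below the median of the other testes for 109 of the 245 (44.49%), against 7, 14, 9 and 7 for testes 1 to 4. Over all tested transcripts it was so for 8.04%. At the same time testis 5 was the highest testis for 52 of the 245, so it was not lower throughout. Male hepatopancreas 5 was the lowest of its group for 675 of the 1629 transcripts called higher in hepatopancreas (41.44%), but more than 8-fold below the others for only 79 (4.85%). Without both libraries, 3391 transcripts were called in place of 3411, 1689 of them toward testis, and 3070 of the 3411 were among them.

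**Figure D4:**
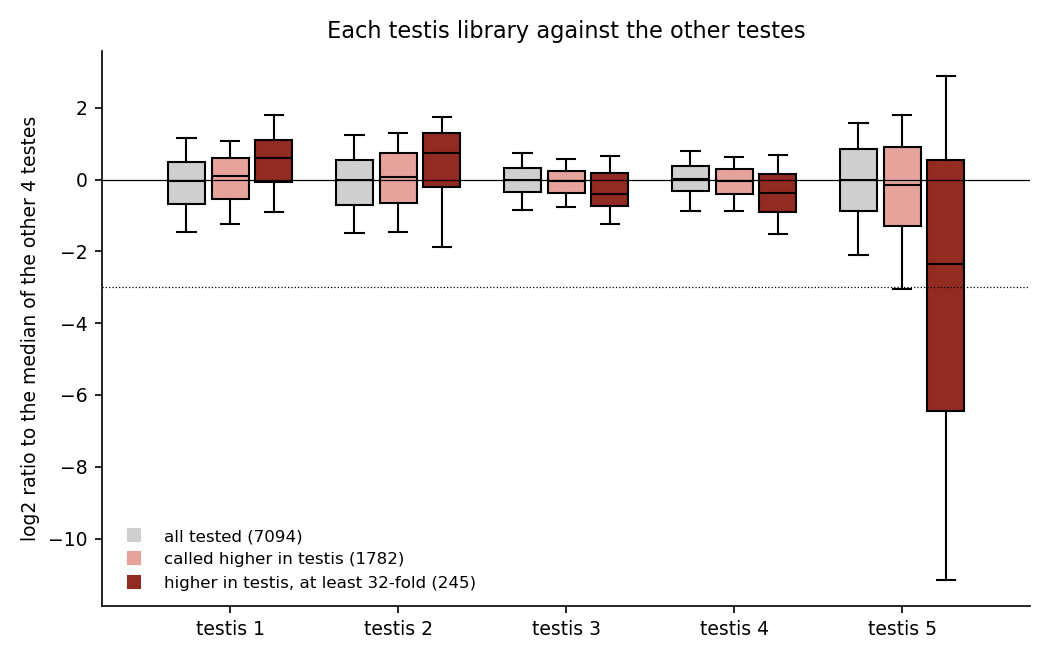
Log2 ratio of the level in each testis library to the median of the other 4 testes, with 0.1 CPM added to both, for all tested transcripts (grey), those called higher in testis (pink) and those at least 32-fold higher (dark red); boxes are quartiles with the median, whiskers the central 80% of transcripts, and the dotted line marks 8-fold below. The dark red median lies at -2.35 in testis 5, against 0.61, 0.74, -0.40 and -0.37 in testes 1 to 4, while the grey median of testis 5 is at 0.

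The filter kept out a set of abundant testis transcripts because testis 5 nearly lacked them. There were 137 transcripts with 10 or more counts in testes 1 to 4 and in no other male library. They held 7.83%, 10.3%, 10.3% and 8.78% of the counts of testes 1 to 4 and 0.00137% of testis 5. In male hepatopancreas libraries they held at most 0.000612%, and in ovaries 0.035% to 0.161%. With only 4 libraries above the minimum, these transcripts could not pass a filter of 5, whatever their level. With a filter of 4 libraries, chosen after seeing the data, edgeR called 3641 of 7505 transcripts, and 1158 in place of 966 were at least 32-fold apart. Another 380 transcripts reached 10 counts in testis 5 alone and held 3.01% of its counts.

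Testis 5 in turn held transcripts that the other testes did not. In it, 478 transcripts stood at least 8 times above every other testis and together took 23.9% of its counts. The corresponding numbers for testes 1 to 4 were 75, 45, 24 and 22 transcripts, with at most 0.239% of counts. Of the 478 in testis 5, 135 were tested, and 62 of these were called higher in testis and 9 higher in hepatopancreas, against 25.1% and 23% of all tested. The 478 were chosen by their level in testis 5, which enters the male calls, so this tilt follows in part from the choice. These 478 transcripts held 11.3% of the counts of female hepatopancreas 4, against 0.124% to 0.281% of the other female hepatopancreas libraries, 0.607% to 1.46% of ovaries and 0.25% to 0.39% of male hepatopancreas. In female hepatopancreas 4, 285 of them (59.6%) were also at least 8 times above every other library of its group, as were 889 (2.94%) of all transcripts. Male hepatopancreas 2 shared 9 of the 478 by the same measure (1.88%, against 0.109% of all transcripts), and these 9 held 7.5% of the counts of testis 5. Male hepatopancreas 5 shared 12 (2.51%, against 0.34%), which held 0.235%. The 33 transcripts high in male hepatopancreas 2 held 5.36% of female hepatopancreas 4 and at most 0.0891% of any other female library. Without testis 5, edgeR called 3466 transcripts, of which 3169 were among the 3411. The source of the 478 transcripts was not tested.

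The 75 transcripts high in testis 1, and the 45 high in testis 2, were called mainly toward hepatopancreas where they were tested. For testis 1, 63 of the 64 tested were called higher in hepatopancreas, against 23% of all tested. For testis 2 it was 17 of 19, with 1 higher in testis. Testes 3 and 4 had few tested, with 2 of 4 and 2 of 3 higher in hepatopancreas. Transcripts low in the other testes could pass the filter mainly through hepatopancreas counts. These calls thus follow in part from the choice. The 75 held 8.59% to 33.8% of female hepatopancreas counts and 0.239% of the counts of testis 1. Without testis 1, edgeR called 3214 transcripts, 1481 of them higher in testis. The total of the 721 largest hepatopancreas transcripts in testis 1 (0.104%) lay within the range of the other testes. Those 721 were chosen as low in the testes, testis 1 among them. Their total therefore cannot show whether testis 1 held more hepatopancreas transcripts than the other testes.

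The female libraries gave a check of tissue identity that was not wholly independent of the male libraries. A fit of ovary against female hepatopancreas left out female hepatopancreas 4, the library that shared transcripts with testis 5. This choice was made after seeing the data. The fit gave 775 transcripts at least 32-fold higher in female hepatopancreas and 413 at least 32-fold higher in ovary. The hepatopancreas set held 72.3%, 75.6%, 67.2%, 62.1% and 68.4% of the counts of male hepatopancreas 1 to 5. It held 0.401%, 0.459%, 0.421%, 0.493% and 0.8% of testes 1 to 5. By this set, the libraries labelled male hepatopancreas carried the transcripts of the female organ, and those labelled testis carried little of them. With female hepatopancreas 4 in the fit, the set had 821 transcripts and its share in testis 5 was 9.02%, against 0.5% to 0.681% in the other testes.

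The ovary set was spread less evenly. It held 0.728%, 0.719%, 1.33%, 1.46% and 2.69% of the counts of testes 1 to 5 and 0.0112% to 0.0178% of male hepatopancreas libraries, against 24.5% to 34.1% of ovaries. All testes were above all male hepatopancreas libraries, at a level far below the ovaries. In the male comparison, 745 of the hepatopancreas set were tested, and 681 (91.41%) were called higher in male hepatopancreas and 8 higher in testis, against 23% and 25.1% of all tested. Of the ovary set only 113 were tested, and 87 (76.99%) were called higher in testis and 1 in hepatopancreas. The median male log2 changes of the sets were -9.36 and 3.52, against 0.21 for all tested. Of the 413 transcripts of the ovary set, 181 had no count in male hepatopancreas. Members of this set could thus pass the filter mainly through testis counts. Their share called higher in testis and their median change follow in part from the filter. Of the 775 transcripts of the hepatopancreas set, 88 had no count in testis and 1 had none in male hepatopancreas. That set could thus pass the filter mainly through male hepatopancreas counts, and its share called and median change also follow in part from the filter.

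Taken by their male call, the transcripts were then looked up in the female comparison. In females edgeR called 4732 of 7107 transcripts (66.6%), 33.6% of those tested higher in ovary and 33% higher in female hepatopancreas. Of the 1547 transcripts higher in male hepatopancreas that were tested in females, 1204 (77.83%) were called higher in female hepatopancreas and 84 higher in ovary. Of the 1529 higher in testis that were tested in females, 691 (45.19%) were called higher in ovary and 284 (18.57%) higher in female hepatopancreas. The values for all 6520 transcripts tested in both sexes were 30.66% toward ovary and 35.34% toward female hepatopancreas. Median female log2 changes (ovary minus hepatopancreas) were -3.88 and 0.73 for the hepatopancreas and testis transcripts, and -0.21 for all.

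The transcripts with the largest changes were also followed in the female libraries. Of the 721 at least 32-fold higher in male hepatopancreas, 664 were tested in females and 642 of these (96.69%) were called higher in female hepatopancreas, with 4 higher in ovary. Their median of mean CPM was 172 in male and 201 in female hepatopancreas, 0.261 in testis and 0.29 in ovary. At such ovary levels they could pass the female filter mainly through female hepatopancreas counts, so the share called follows in part from the filter. Among all transcripts tested in females, 33% were called higher in female hepatopancreas and 33.6% higher in ovary. Of the 245 at least 32-fold higher in testis, only 96 had enough counts to be tested in females, and 48 of them were called higher in ovary and 13 higher in female hepatopancreas. Their median of mean CPM was 98.3 in testis, 0.605 in ovary, 0.184 in female hepatopancreas and 0.0395 in male hepatopancreas. By these median levels, the largest hepatopancreas transcripts were common to both sexes, while the largest testis transcripts were low in the ovary.

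**Figure D5:**
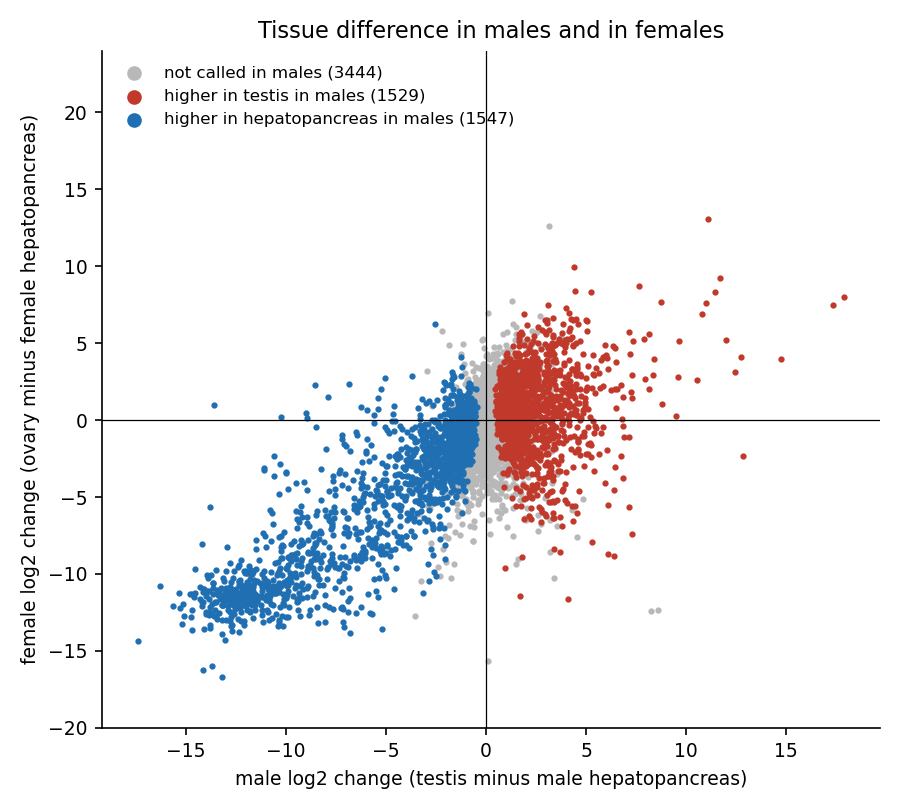
Log2 change in females (ovary minus female hepatopancreas) against that in males (testis minus male hepatopancreas) for 6520 transcripts tested in both; colours give the male call. The blue points, higher in male hepatopancreas, lie mostly below 0 in females (median -3.88), while the red points, higher in testis, spread on both sides of 0 (median 0.73).

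A test of the tissue difference itself between the sexes called 3013 of 8043 transcripts (37.5%) in edgeR. Male libraries enter both this test and the male calls, so the counts by male class are a description. It called 960 of the 1782 transcripts higher in testis (53.87%), 464 of the 1629 higher in hepatopancreas (28.48%) and 2832 of all 7094 (39.92%). Among the 960, the female difference was less toward the gonad for 790. For transcript_HQ_Female_transcript21720/f3p0/681 the difference between the sexes (female minus male) was -12.57 ± 4.87 on the log2 scale (SE), with an edgeR adjusted p of 0.0499. That fitted size is uncertain, as it rests on 1 count in female hepatopancreas, in library 4, and 14 in male hepatopancreas. For transcript_HQ_Female_transcript11511/f7p0/1333, which had no count in the hepatopancreas of either sex, the interaction was not called (edgeR adjusted p of 1) and its fitted size depends on the prior count and is not given. Of the 721 largest hepatopancreas transcripts it called 111 (15.4%).

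Some transcripts were called in opposite directions. There were 284 called higher in testis in males and higher in hepatopancreas in females, with a median log2 change of 1.55 in males and -2.10 in females. Their median of mean CPM was 89.2 in testis, 21.2 in male hepatopancreas, 11.5 in ovary and 76.7 in female hepatopancreas. The highest testis was testis 1 for 92 of them, testis 2 for 90 and testis 5 for 60, and the highest female hepatopancreas was number 4 for 87, so no single library was the highest for all of them. Another 84 were higher in male hepatopancreas and in ovary, with medians of -1.19 and 1.33. These levels were 15.1 CPM in male hepatopancreas, 5.30 in testis, 58.0 in ovary and 24.1 in female hepatopancreas.

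Within males, same-numbered libraries gave mostly the direction of the call. All 5 pairs of testis and hepatopancreas libraries with the same number went the same way for 1493 of the 1782 transcripts called higher in testis (83.78%). They did so for 1558 of the 1629 called higher in hepatopancreas (95.64%), and for 3713 of all 7094 tested (52.34%). The pairs are made of the libraries that gave the calls, so the shares among called transcripts follow in part from the calling and are a description.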

How the data were processed

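The authors deposited estimated counts per transcript, and these had not been normalised. Per the submitters' processing notes, Bowtie 0.12.2 and DESeq 1.10.1 were used in a role that is not stated. For the counter, the reference transcripts and the use of strand, the tool or setting was not given in the sources used here. Among the tested transcripts, 3807 (53.67%) had whole values (to within 1e-06) in all 10 male libraries, and the rest share reads between IDs. Estimated counts were rounded and tested with edgeR 4.0.16 in R 4.3.3 (quasi-likelihood test, TMM, library sizes from all transcripts, at least 10 counts in at least 5 libraries, Benjamini-Hochberg adjustment over all tested). The male comparison used the 5 testis and 5 male hepatopancreas libraries, the female comparison the 10 female libraries, and the interaction of sex and tissue all 20. The SE is the log2 change divided by the square root of F. CPM and log2 changes of different fits carry different scaling factors. Poisson intervals, and bounds against 3 counts over a group, cover counting error only. Library measures were tested over samples in Python 3.11.15 with scipy 1.17.1.

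No ID matched a gene of the reference gene table. Transcripts were named by a rule: among the called, the 2 per direction with the widest gap between groups on log2 CPM with a prior count of 2. The comparison, the transcript sets and the rule were chosen with earlier results of these data known. The male and female edgeR fits were tried on simulated counts. Few transcripts were changed there, about evenly in both directions, and the composition of the organs did not otherwise differ. Effects of scaling on the calls were thus not tested by simulation.

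Replicate numbers were checked as a mark of pairing. Deviations from the group means of same-numbered testis and hepatopancreas libraries correlated at 0.17 to 0.31 in 5 of 5 pairs. Those of libraries with other numbers correlated at -0.14 to 0.017. The labels do not say that equal numbers share an animal, so the main tests left the samples unpaired. A fit with the replicate number as a block was run as an alternative. The weight gain labels differed within all 5 pairs. Alternatives were DESeq2 1.42.0, its size factors, library totals alone, dropping the filter or raising it to 50 counts, a joint fit of the 4 groups, the replicate block, weight gain as a covariate, whole-valued transcripts alone, and leaving out libraries. A filter of 4 libraries, female sets without female hepatopancreas 4 and sets at 8-fold were chosen after seeing the data.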

Additional observations from a re-analysis of the deposited data

Results flagged for a closer look

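In 4 of 32 checks within groups of 5 libraries, the gap of an extreme library to its neighbour was above Dixon's critical value of 0.71 of the group's range, which chance does in about 1 of 20 groups. Testis 5 held 10.79% of its counts on IDs with the word Male, against 3.45% to 5.4% in testes 1 to 4. Testis 5 also held 9.02% on transcripts at least 32-fold higher in female hepatopancreas, and 0.8% on the set made without female hepatopancreas 4, where the other testes lay between 0.401% and 0.493%. Male hepatopancreas 5 held 0.0157% on transcripts at least 32-fold higher in ovary, against 0.00868% to 0.0096% in the other male hepatopancreas libraries. So 3 of the 4 concern testis 5, and these measures overlap in the transcripts they count.

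The tissue difference differed between the sexes for 3013 transcripts in the edgeR test of the interaction. For transcript_HQ_Female_transcript21720/f3p0/681, the most abundant testis transcript, the interaction was -12.57 on the log2 scale (female minus male), with an edgeR adjusted p of 0.0499, close to the threshold. It is a difference between 29500 to 119000 CPM in testis and at most 7.05 CPM in ovary, with the hepatopancreas of both sexes under 1 CPM. Female hepatopancreas held 1 count of this transcript, in library 4, so the fitted size is uncertain.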

How the results depend on the processing

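The numbers of calls held within 1.5 times of the reported ones in most settings. The exceptions were library totals without TMM, with 3169 higher in testis (1088 in hepatopancreas), and whole-valued transcripts alone, where 3807 were tested and 1876 called (839 and 1037). DESeq2 called 3631 (1735 and 1896). With the replicate block, edgeR called 3237 (1593 and 1644), and 3013 of the 3411 were among them; in females it called 4617 and for the interaction 2709, and the block changed the call of no named transcript. Leaving out a library, on the transcripts tested with all of them, gave 2900 to 3466 calls, 1221 to 1759 in testis and 1483 to 1790 in hepatopancreas. Transcripts with no count in the other organ numbered 501 with no filter, 110 with a filter of 50 counts and 325 with 10 counts in 4 libraries. The mean ovary share of testis counts was 1.97% on transcripts at least 8-fold higher in ovary and 1.02% at 32-fold for the sets made with all female libraries, and 2.62% and 1.39% for those made without female hepatopancreas 4. The sign of 2 library measures turned with their definition: the 100 most abundant transcripts held 1.85 percentage points less in testis (-1.85), and the effective number on counts was 32.2 higher. Leaving out a library moved the testis minus hepatopancreas difference from 501 to 745 for transcripts detected, 0.833 to 6.24 for the 10 most abundant, -135 to -76.6 for the effective number, -489 to -356 for mean length, -1.62 to 0.211 for Male IDs (0.153 without male hepatopancreas 4) and 2.42 to 6.77 for LQ IDs; the cause of these moves was not tested. Depth differed from 8670640 counts (ovary 2) to 18355650 (male hepatopancreas 1), and a transcript with counts in 4 libraries alone could not pass the filter.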
